A study of Mus musculus with 12 samples.

Results

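Collagens and basement membrane genes were followed in 3 cell populations sorted from E7.5 mouse embryos. The set was a list of 10 Ensembl gene IDs given with their symbols, out of 22400 rows of the gene-level array table. All 10 were present: Col1a1, Col1a2 and Col3a1, Col4a1 and Col4a2, Lama1, Lamb1 and Lamc1, and Sparc and Postn. The embryos carried a Foxf1::venus knock-in on a C57BL/6 background, so that the fluorescent protein VENUS reported Foxf1, a forkhead transcription factor gene of the mesoderm. The sort used VENUS together with FLK1, a VEGF receptor carried by precursors of blood and endothelium. The populations are called by their labels: Flk-pos Foxf1-neg, Flk-pos Foxf1-pos and Flk-neg Foxf1-pos. All 3 came from the same knock-in strain at embryonic day 7.5, and no wild-type or unsorted sample was used here. Each population was measured on 2 arrays, from sort 1 and sort 2, with 50 cells per sample. The labels do not say which embryos or how many went into a sort, so the spread between sorts may be partly technical.

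Fibrillar collagens such as types I and III form the load-bearing fibres of connective tissue and are made mainly by mesenchymal cells. Type IV collagen and laminin form the sheet-like networks of basement membranes, the thin layers under epithelia and around vessels. In the early mouse embryo these membranes are laid down from before gastrulation, and the parietal endoderm makes large amounts of laminin, type IV collagen and SPARC for the outer membrane of the conceptus. Migrating mesoderm moves along such a matrix and also makes part of it.

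No member passed an adjusted p of 0.05 in limma in any of the 3 comparisons, in either direction. The largest differences were those of Lamc1, the laminin gamma chain, and Sparc, a collagen-binding matricellular protein. Lamc1 had a mean log2 signal 0.96 ± 0.35 (SE) higher in Flk-neg Foxf1-pos than in Flk-pos Foxf1-neg cells (adjusted p = 0.568 in limma, 2 arrays each). Sparc was 0.73 ± 0.25 higher in the same comparison (adjusted p = 0.511 in limma). The median absolute difference of all 10 members was 0.115, 0.144 and 0.306 log2 units in the 3 comparisons, against 0.180, 0.180 and 0.193 over all rows. The comparisons share arrays pairwise, so their values are not independent of each other.

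**Figure D1:**
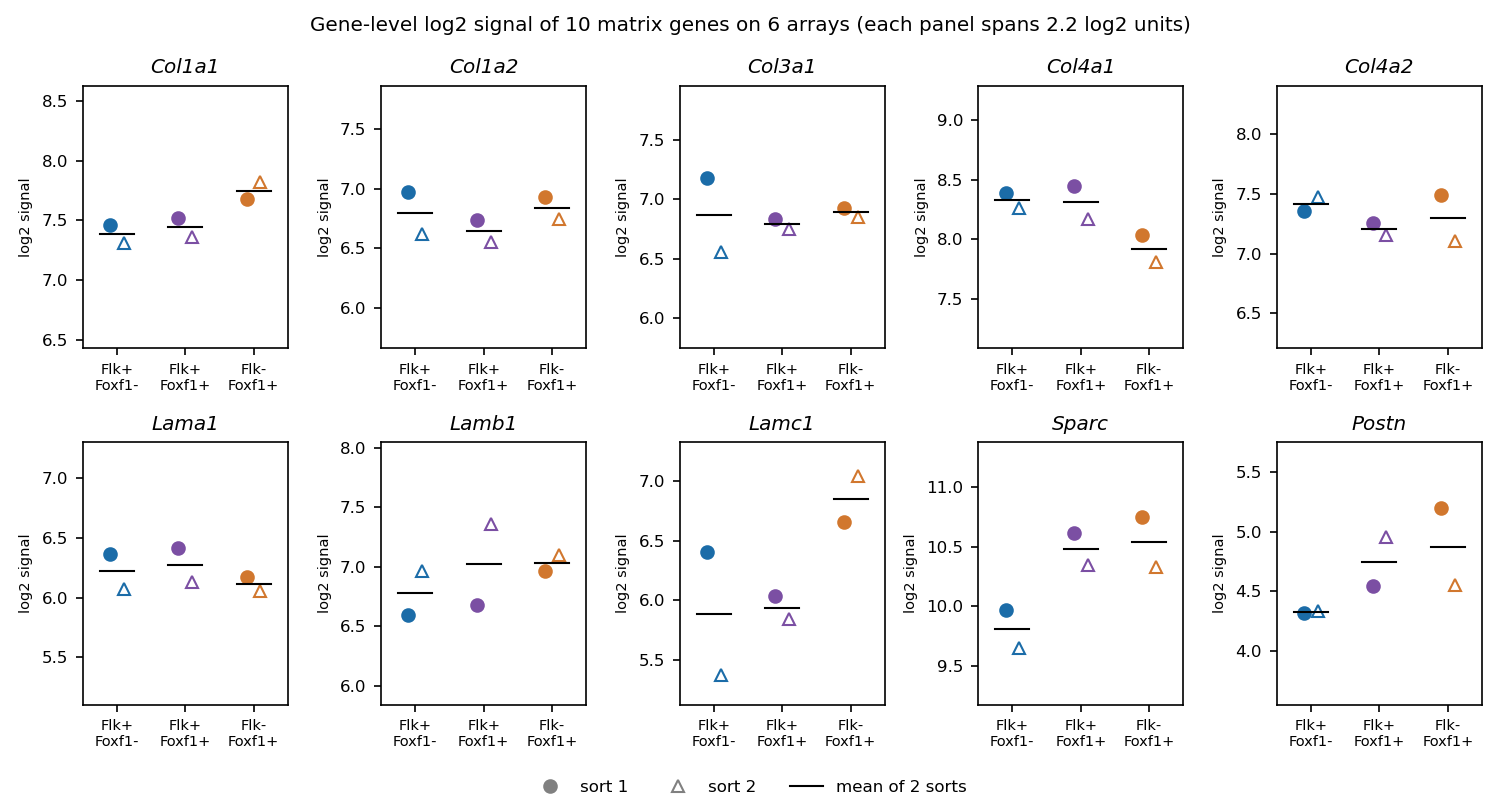
Gene-level log2 signal of each member (vertical axis, log2 units, each panel centred on the gene and spanning the same width) in the 3 populations; circles are sort 1, triangles sort 2 and lines the mean of both. Sparc has both Flk-pos Foxf1-neg arrays below the other 4, and Lamc1 has both Flk-neg Foxf1-pos arrays above the other 4.

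The data limit how small a difference could be seen. The median standard error over all rows was 0.251 log2 units, and the 95% intervals of the members reached from 0.48 to 0.83 log2 units either side of the estimate. These intervals are not adjusted for multiple testing. Between the Flk-pos populations, 8 of the 10 intervals lay wholly within 1 log2 unit of 0, the exceptions being Sparc and Postn. Between the Foxf1-pos populations 9 did, the exception being Lamc1. Between Flk-neg Foxf1-pos and Flk-pos Foxf1-neg cells 7 did, the exceptions being Lamc1, Sparc and Postn.

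The array medians lay between 6.00 and 6.07. The table pairs no IDs with names, and the reference gene table holds no Ensembl IDs, so the sorting genes, the markers of endoderm and other cell types, and other matrix genes were not checked here. The population labels are taken as deposited. In such sorted samples, fewer cells making a transcript and less of it per cell cannot be told apart. Signals of different genes come from different probes and are not compared with each other.

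Among the fibrillar collagens, Col1a1 (ENSMUSG00000001506) encodes the alpha 1 chain of type I collagen. Its log2 signal was 7.46 and 7.31 in the Flk-pos Foxf1-neg sorts, 7.52 and 7.36 in the Flk-pos Foxf1-pos sorts, and 7.68 and 7.82 in the Flk-neg Foxf1-pos sorts. Both Flk-neg Foxf1-pos arrays lay above the other 4, and the arrays of the Flk-pos populations overlapped. The mean was 0.36 ± 0.21 (SE) log2 units above Flk-pos Foxf1-neg (adjusted p = 0.822 in limma), with a 95% interval from -0.12 to 0.85. Flk-pos Foxf1-pos cells differed from Flk-neg Foxf1-pos cells by -0.31 ± 0.21 (adjusted p = 0.9993 in limma).

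Col1a2 (ENSMUSG00000029661), whose product joins that of Col1a1 in the type I trimer, did not share the pattern. It stood at 6.97 and 6.62 in Flk-pos Foxf1-neg, 6.73 and 6.55 in Flk-pos Foxf1-pos, and 6.93 and 6.75 in Flk-neg Foxf1-pos cells. The highest and the second lowest array belonged to the same population. The difference between Flk-neg Foxf1-pos and Flk-pos Foxf1-neg cells was 0.04 ± 0.23 (SE), with a 95% interval from -0.49 to 0.57. Col3a1 (ENSMUSG00000026043), the type III chain, read 7.18 and 6.56, 6.83 and 6.75, and 6.93 and 6.85 in the same order of populations. Its highest and lowest arrays were the 2 sorts of Flk-pos Foxf1-neg cells, and its population means spanned 0.0975 log2 units.

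Col1a2 and Col3a1 had the most similar profiles of any pair of members. Centred on their own means, their 6 values differed by a root mean square of 0.0962 log2 units. By this measure Col1a2 was in place 148 among the 22399 other rows for Col3a1, and Col3a1 was in place 244 for Col1a2. Both had sort 1 above sort 2 in all 3 populations, so part of the likeness is of sorts and not of populations.

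The sequences before the RefSeq starts of these genes are shown because the pair was the closest. They come from RefSeq, build GRCm38.p6, which holds such an entry for 7 of the 10 members. Capitals mark every match on either strand to CCAAT (the CCAAT box), TATAAA (the TATA box) or TAAACA (the core of forkhead sites). Each window is the 250 bases upstream of the start, read 5′ to 3′ on the gene's strand, at chr6:4505368-4505617 (plus strand) for Col1a2 and chr1:45311288-45311537 (plus strand) for Col3a1.
Col1a2: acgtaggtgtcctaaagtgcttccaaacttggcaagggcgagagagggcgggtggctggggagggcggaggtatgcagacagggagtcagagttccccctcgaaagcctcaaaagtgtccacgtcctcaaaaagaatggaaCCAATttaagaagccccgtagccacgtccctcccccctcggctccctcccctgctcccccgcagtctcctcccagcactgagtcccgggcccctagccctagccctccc
Col3a1: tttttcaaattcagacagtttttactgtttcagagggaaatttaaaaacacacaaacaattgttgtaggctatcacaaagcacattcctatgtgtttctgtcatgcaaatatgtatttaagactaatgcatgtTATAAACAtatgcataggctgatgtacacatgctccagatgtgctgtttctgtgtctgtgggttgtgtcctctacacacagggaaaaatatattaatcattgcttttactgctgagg
The Col1a2 window holds 1 CCAAT match, 105 to 109 bases before the start. The Col3a1 window holds a TATAAA and a TAAACA that overlap each other, between 110 and 117 bases before the start. Of 32817 windows of the same length, 33.8% hold CCAAT, 12.4% TATAAA and 12.03% TAAACA on either strand. Such matches describe the letters only.

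Type IV collagen is built from 2 alpha 1 chains and 1 alpha 2 chain in its common form, encoded by Col4a1 (ENSMUSG00000031502) and Col4a2 (ENSMUSG00000031503). The genes lie head to head. Their RefSeq starts are at base 11312826 (Col4a1, minus strand) and base 11312805 (Col4a2, plus strand) of chromosome 8, so that the ends of both transcripts share 22 bases. The 30 bases at chr8:11312801-11312830 (plus strand, GRCm38.p6, RefSeq) are shown for this arrangement, with the shared 22 bases in capitals.
Col4a1 and Col4a2 starts: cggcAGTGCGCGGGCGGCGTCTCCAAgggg
Col4a1 read 8.39 and 8.26 in Flk-pos Foxf1-neg, 8.45 and 8.17 in Flk-pos Foxf1-pos, and 8.04 and 7.81 in Flk-neg Foxf1-pos cells. Both Flk-neg Foxf1-pos arrays were below the other 4. The mean was -0.40 ± 0.22 (SE) log2 units from Flk-pos Foxf1-neg (adjusted p = 0.804 in limma), and Flk-pos Foxf1-pos cells were 0.39 ± 0.22 above Flk-neg Foxf1-pos cells (adjusted p = 0.971). With 1 array left out these ranged from -0.52 to -0.29 and from 0.25 to 0.52.

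Col4a2 did not show that order. Its values were 7.36 and 7.48, 7.26 and 7.16, and 7.49 and 7.10 in the same order of populations, and the highest and the lowest array were both Flk-neg Foxf1-pos. Its difference between Flk-neg Foxf1-pos and Flk-pos Foxf1-neg cells was -0.12 ± 0.22 (SE), with a 95% interval from -0.65 to 0.40. The log2 gap between Col4a1 and Col4a2 within an array was 0.55 and 0.70 in Flk-neg Foxf1-pos cells, against 1.03 and 0.78 in Flk-pos Foxf1-neg and 1.19 and 1.02 in Flk-pos Foxf1-pos cells. The gap itself reflects probes as well as transcripts. Its change between arrays can reflect both too, since a gene value may come from different probes on different arrays. The change of the gap was not tested.

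**Figure D2:**
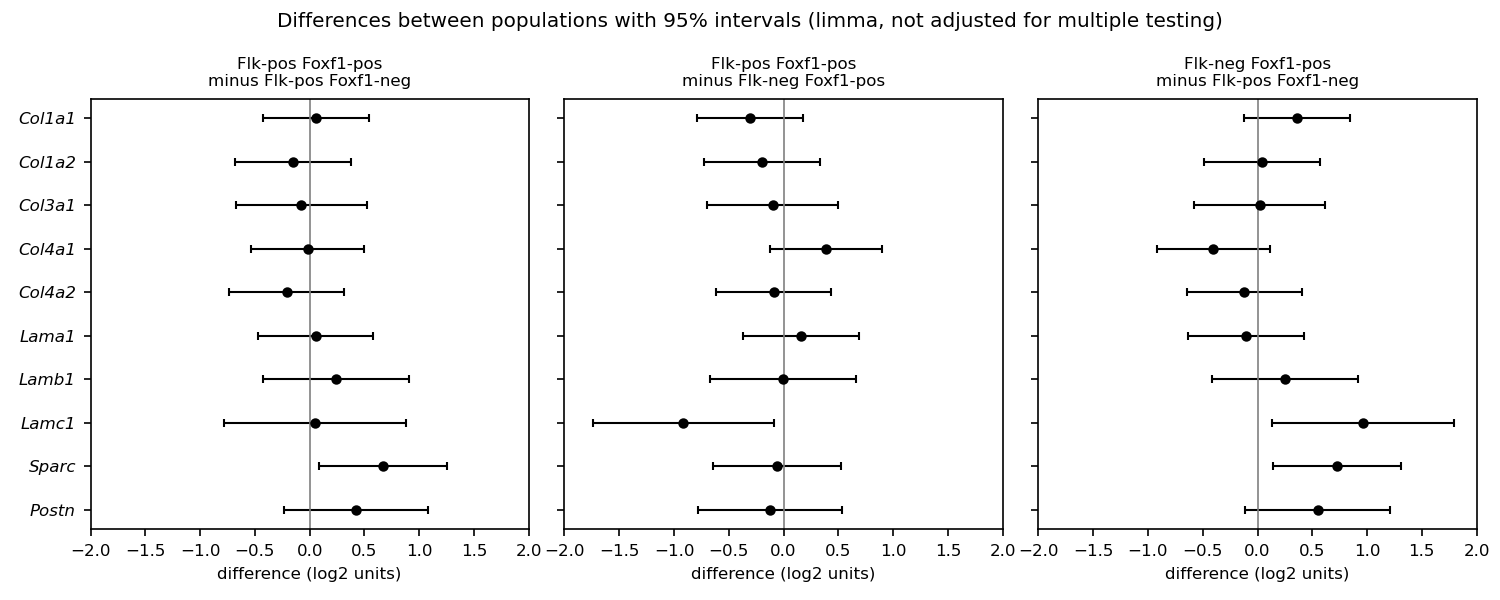
Difference in mean log2 signal (horizontal axis, log2 units) for each member in the 3 comparisons, with points for the limma estimate and bars for its 95% interval without adjustment for multiple testing. The interval of Sparc in the left panel, of Lamc1 in the middle panel and of both in the right panel does not reach 0.

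The laminin chains Lama1 (ENSMUSG00000032796), Lamb1 (ENSMUSG00000002900) and Lamc1 (ENSMUSG00000026478) together form the main laminin trimer of early embryonic basement membranes. For Lamc1 the values were 6.41 and 5.37 in Flk-pos Foxf1-neg, 6.03 and 5.84 in Flk-pos Foxf1-pos, and 6.66 and 7.05 in Flk-neg Foxf1-pos cells. Both Flk-neg Foxf1-pos arrays were the highest, and the 2 Flk-pos Foxf1-neg sorts lay on either side of the Flk-pos Foxf1-pos ones. Flk-neg Foxf1-pos cells were above Flk-pos Foxf1-neg cells by 0.96 log2 units, with a 95% interval from 0.14 to 1.79, a ratio of 1.95. The difference of Flk-pos Foxf1-pos from Flk-neg Foxf1-pos cells was -0.91 ± 0.35 (SE, adjusted p = 0.810 in limma). The estimate against Flk-pos Foxf1-neg cells rests on which sort is used: it was 1.48 without their sort 1 and 0.45 without their sort 2. Lamc1 also had a wider spread between sorts than 86.1% of all rows.

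Lama1 stood at 6.37 and 6.07, 6.42 and 6.13, and 6.17 and 6.06 in the same order of populations. Every pair of populations overlapped, and the largest difference between their means was 0.16 ± 0.22 (SE) log2 units, ranging from 0.016 to 0.30 with 1 array left out. Lamb1 read 6.60 and 6.97, 6.68 and 7.36, and 6.97 and 7.10. Its populations overlapped too, and its largest difference was 0.25 ± 0.28, between Flk-neg Foxf1-pos and Flk-pos Foxf1-neg cells, with a range from 0.062 to 0.44 when 1 array was left out. The separation of arrays seen for Lamc1 was therefore not seen in the 2 chains it assembles with. The means of Lamb1 nevertheless had the order of those of Lamc1, lowest in Flk-pos Foxf1-neg and highest in Flk-neg Foxf1-pos cells. The difference between chains was not tested.

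The matricellular pair bind the matrix without being part of its framework. Sparc (ENSMUSG00000018593) read 9.96 and 9.65 in Flk-pos Foxf1-neg, 10.61 and 10.35 in Flk-pos Foxf1-pos, and 10.75 and 10.33 in Flk-neg Foxf1-pos cells. Both Foxf1-pos populations lay above both Flk-pos Foxf1-neg arrays and overlapped each other. Flk-pos Foxf1-pos cells were above Flk-pos Foxf1-neg cells by 0.67 ± 0.25 log2 units (SE, adjusted p = 0.9999 in limma), a ratio of 1.59 with a 95% interval of the log2 difference from 0.09 to 1.25. For Flk-neg Foxf1-pos cells the ratio was 1.66 and the interval 0.14 to 1.31. The Foxf1-pos populations differed by -0.06 ± 0.25, with an interval from -0.64 to 0.53. With 1 array left out, the first difference ranged from 0.52 to 0.83 and the second from 0.52 to 0.94. The arrays do not overlap in either comparison, so leaving out 1 array could not reverse them.

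Postn (ENSMUSG00000027750), the gene of periostin, a matrix protein of mesenchyme and heart valves, was the only member among the dimmer 50% of the rows. It read 4.32 and 4.34, 4.55 and 4.95, and 5.20 and 4.55 in the same order of populations. Both Foxf1-pos populations lay above the Flk-pos Foxf1-neg arrays here as well. The differences were 0.42 ± 0.28 and 0.55 ± 0.28 log2 units (SE, adjusted p = 0.9999 and 0.777 in limma), and the intervals of both included 0. With 1 array left out, the former ranged from 0.22 (without Flk-pos Foxf1-pos sort 2) to 0.62 and the latter from 0.22 (without Flk-neg Foxf1-pos sort 1) to 0.87. Without detection calls, a signal this low cannot be called present or absent.

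Sparc was the member nearest to Postn and Postn the nearest to Sparc, at a root mean square of 0.250 log2 units (place 1249 and place 606 among the 22399 other rows). The windows before their starts are printed since both genes had all 4 Foxf1-pos arrays above both Flk-pos Foxf1-neg arrays. The share of all rows with that order was not counted. They are the 250 bases upstream of the RefSeq start at chr11:55420081-55420330 (minus strand) for Sparc and, for Postn, of the second of 2 listed starts at chr3:54360857-54361106 (plus strand), GRCm38.p6, marked as above.
Sparc: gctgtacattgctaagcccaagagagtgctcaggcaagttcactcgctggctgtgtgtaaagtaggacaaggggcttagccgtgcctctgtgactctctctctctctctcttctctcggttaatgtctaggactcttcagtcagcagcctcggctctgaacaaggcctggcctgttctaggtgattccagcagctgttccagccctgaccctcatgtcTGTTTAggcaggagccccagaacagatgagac
Postn: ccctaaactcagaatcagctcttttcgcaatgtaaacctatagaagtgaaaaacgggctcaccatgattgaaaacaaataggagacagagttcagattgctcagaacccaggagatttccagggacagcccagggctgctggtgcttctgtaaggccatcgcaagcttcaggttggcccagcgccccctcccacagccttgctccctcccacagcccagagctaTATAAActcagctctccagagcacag
The Sparc window holds the forkhead core on the opposite strand, 27 to 32 bases before the start. This core is in 12.03% of all windows on either strand, that of Col3a1 among them. Whether it is used was not tested. The Postn window holds TATAAA 21 to 26 bases before the start and no forkhead core in these letters. The window of the other Postn start holds none of the 3 motifs.

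The members' counts were read against the share of all rows in each comparison. Shares of arrays without overlap were counted for pairs of populations. They were not counted for 1 population lying apart from both others, as in Col1a1, Col4a1, Lamc1, Sparc and Postn. In Flk-pos Foxf1-pos against Flk-pos Foxf1-neg cells, which asks what goes with the reporter among FLK1-positive cells, limma called 0 of 10 members and 0% of all rows in each direction. At an unadjusted p under 0.05 there was 1 member (Sparc), against 4.67% of rows. Sparc and Postn had both Flk-pos Foxf1-pos arrays above both Flk-pos Foxf1-neg arrays (15.7% of rows did), and Col4a2 had both below (16.3% of rows). The median difference was 0.05 log2 units over the members and -0.0022 over all rows.

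In Flk-pos Foxf1-pos against Flk-neg Foxf1-pos cells, which asks what goes with FLK1 among reporter-positive cells, limma called 0 members, against 0.219% of rows higher and 0.067% lower. At an unadjusted p under 0.05 there was 1 member (Lamc1), against 5.86% of rows. Among the members, Col4a1 alone had both Flk-pos Foxf1-pos arrays above both Flk-neg Foxf1-pos arrays (15.5% of rows), while Col1a1, Col1a2, Col3a1 and Lamc1 had both below (16.9% of rows). All 3 fibrillar collagens were thus on the lower side in Flk-pos Foxf1-pos cells, with differences of -0.31, -0.20 and -0.10 log2 units, all with 95% intervals that include 0. With 1 array left out they ranged from -0.39 to -0.23, from -0.29 to -0.10 and from -0.14 to -0.057. The member median was -0.09, with 8 of 10 differences below 0, and the median of all rows was -0.0069.

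In Flk-neg Foxf1-pos against Flk-pos Foxf1-neg cells, which sets the single-positive populations against each other, limma again called 0 members, against 0.188% of rows higher and 0.357% lower. At an unadjusted p under 0.05 there were 2 members, Lamc1 and Sparc, against 7.28% of rows. Col1a1, Lamc1, Sparc and Postn had both Flk-neg Foxf1-pos arrays above both Flk-pos Foxf1-neg arrays (17.9% of rows), and Col4a1 had both below (17.3% of rows). The median was 0.15 over the members and 0.0017 over all rows. Whether the members as a set differ from other rows was not tested, since they were chosen with results known.

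The spread between sorts was large beside the differences between populations, as it was over the whole table. For 7 of the 10 members, the largest of the 3 gaps between 2 sorts exceeded the range of the 3 population means, and 74.6% of all rows did this. The gaps are between single arrays and the range is of means of 2, which by itself favours the gaps. The exceptions were Col1a1, Col4a1 and Sparc, the last with a largest gap of 0.42 against a range of 0.73 log2 units. Taken as sort 1 minus sort 2, the widest gap was 1.03 log2 units, for Lamc1 in Flk-pos Foxf1-neg cells, followed by -0.68 for Lamb1 in Flk-pos Foxf1-pos and 0.65 for Postn in Flk-neg Foxf1-pos cells.

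Several members differed between sorts in the same direction throughout. Sort 1 was above sort 2 in all 3 populations for Col1a2, Col3a1, Col4a1, Lama1 and Sparc (16.7% of all rows did this), and sort 2 was above sort 1 in all 3 for Lamb1 (14.1% of rows). For Sparc the gaps were 0.31, 0.27 and 0.42 log2 units in Flk-pos Foxf1-neg, Flk-pos Foxf1-pos and Flk-neg Foxf1-pos cells. Within sort 1, Sparc was higher in both Foxf1-pos populations (10.61 and 10.75 against 9.96), and within sort 2 as well (10.35 and 10.33 against 9.65). A block for the sort number cannot change the differences themselves in this balanced design. With it, the 2 differences of Sparc from Flk-pos Foxf1-neg cells had a standard error of 0.20. Neither passed (adjusted p = 0.728 for Flk-pos Foxf1-pos and 0.330 for Flk-neg Foxf1-pos cells in limma). The labels do not say what the sort number stands for.

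**Figure D3:**
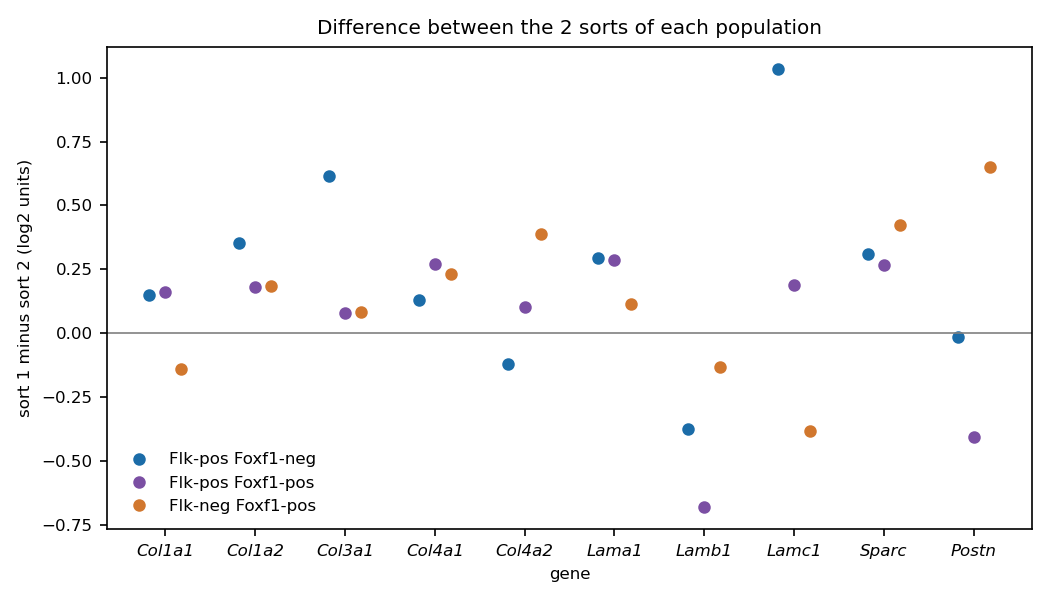
Sort 1 minus sort 2 (vertical axis, log2 units) for each member, with 1 point per population coloured as in the key. Points of Col1a2, Col3a1, Col4a1, Lama1 and Sparc lie above 0 in all 3 populations and those of Lamb1 below.

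Part of the gene-level values could be traced to exon-level probe sets, small groups of probes within 1 exon. The exon-level table holds 128950 of them without gene names. In 12857 gene rows (57.4%), all 6 values had at most 5 decimals, as probe set values do, and 99.0% of those values equalled a probe set of the same array exactly. Against another array the share was 19.3%. In the other 9543 rows a sixth decimal occurred, as when 2 probe sets are averaged, and 9.54% of values equalled a single probe set. This is the form that a median over an odd or an even number of probe sets takes. A gene value of this kind is read from 1 or 2 middle probe sets, which may differ from array to array.

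Of the members, Col3a1, Col4a1, Col4a2 and Lama1 had at most 5 decimals, and each of their values equalled a probe set. The values of Col4a1 came from 3 different probe sets over the 6 arrays: 4413672 on 3 arrays, 4948465 on 2 arrays and another on the remaining one. For the members with a sixth decimal, the mean of 1 pair of probe sets equalled the value of Sparc on 5 arrays and that of Lamc1 on 3 arrays. Altogether 10 probe sets matched for 6 members, counting single probe sets equal on at least 2 arrays and pairs equal on at least 3. With the arrays shifted against each other in 5 ways, 0 single probe sets and 0 pairs matched. For Col1a1, Col1a2, Lamb1 and Postn none was found. Because these probe sets were the middle ones on some arrays, they are not evidence independent of the gene values.

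Each matched probe set of Lamc1 separated every pair of populations, which its gene value did not. The pair was matched on 3 arrays, both Flk-pos Foxf1-pos sorts and Flk-neg Foxf1-pos sort 1. On neither Flk-pos Foxf1-neg array did its mean equal the gene value, so it need not stand for the gene there. Other probe sets of Lamc1 are not known here. The share of all probe sets that separate every pair of populations was not counted. Probe set 5162726 read 5.86 and 5.50 in Flk-pos Foxf1-neg, 6.17 and 6.00 in Flk-pos Foxf1-pos, and 6.81 and 7.04 in Flk-neg Foxf1-pos cells, with no overlap between any 2 populations. Probe set 4705433 read 5.62 and 4.95, 5.90 and 5.68, and 6.51 and 6.07, again without overlap. The gene value of 6.41 in Flk-pos Foxf1-neg sort 1 was above both of them. Flk-neg Foxf1-pos cells exceeded Flk-pos Foxf1-neg cells by 1.25 ± 0.25 and 1.00 ± 0.32 log2 units (SE), with adjusted p = 0.209 and 0.543 in limma over all 128950 probe sets. No matched probe set passed the threshold in any comparison, where 0.000775%, 0.159% and 0.345% of all probe sets did.

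For Sparc the pair differed in size. Probe set 5064569 read 10.24 and 9.28, 11.19 and 10.56, and 11.01 and 10.38 in the same order of populations, and 5151034 read 9.69 and 10.03, 10.23 and 10.13, and 10.49 and 10.27. Both had all 4 Foxf1-pos arrays above both Flk-pos Foxf1-neg arrays. Flk-pos Foxf1-pos cells were above Flk-pos Foxf1-neg cells by 1.12 ± 0.43 log2 units (SE) in the former and by 0.32 ± 0.25 in the latter. The share of all probe sets with both Flk-pos Foxf1-neg arrays lowest was not counted.

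The lower Col4a1 signal of Flk-neg Foxf1-pos cells was not seen in its matched probe sets. Probe set 4413672 read 8.39 and 8.26, 8.45 and 8.51, and 7.98 and 8.61, a difference of -0.03 ± 0.29 log2 units (SE) between Flk-neg Foxf1-pos and Flk-pos Foxf1-neg cells where the gene value gave -0.40. Probe set 4948465 gave 0.33 ± 0.30 for the same comparison. The former equalled the gene value on neither Flk-neg Foxf1-pos array, and the latter on neither Flk-pos Foxf1-neg array. Neither need therefore stand for the gene in both populations. For Col4a2, probe set 5494066 equalled the gene value on 3 arrays but stood at 8.71 in Flk-pos Foxf1-neg sort 2 and 8.63 in Flk-neg Foxf1-pos sort 1, where the gene values were 7.48 and 7.49. A gap of more than 1 log2 unit between probe set and gene value thus occurred on single arrays.

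**Figure D4:**
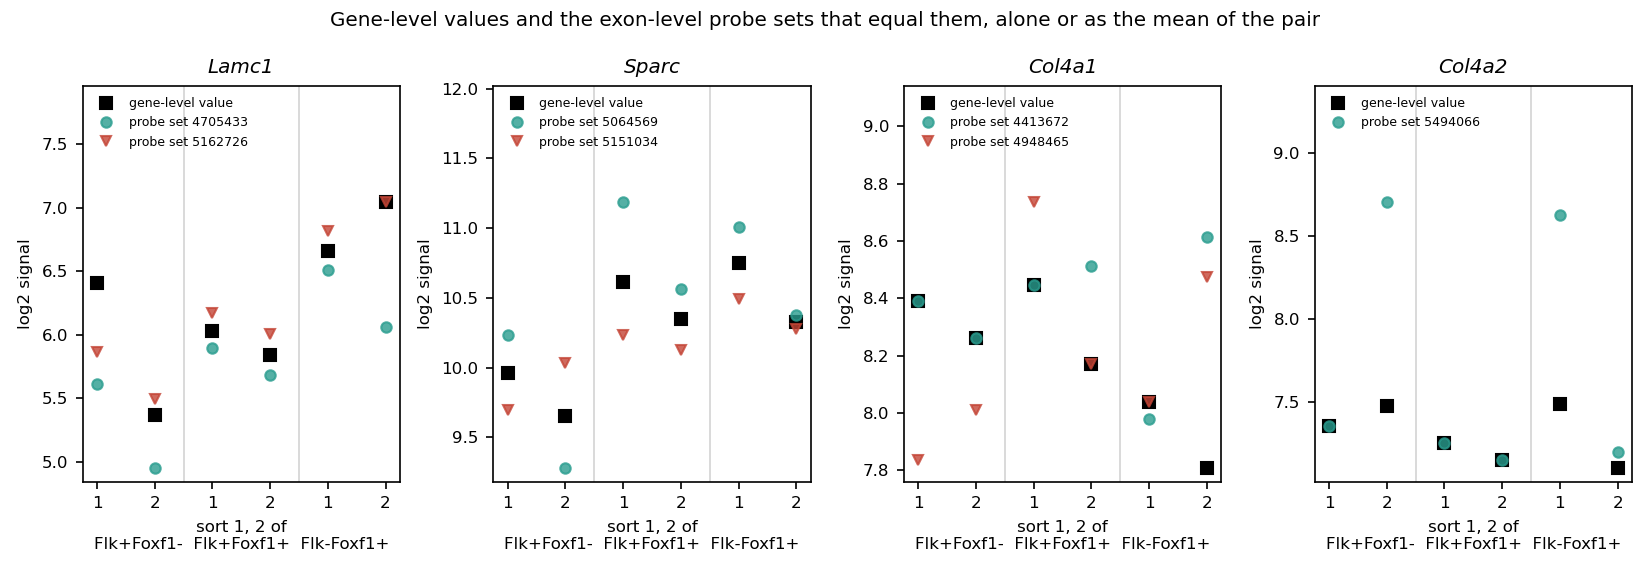
Log2 signal (vertical axis) of the gene-level value (squares) and of the matched exon-level probe sets (circles and triangles) on the 6 arrays, ordered by population and sort, for Lamc1, Sparc, Col4a1 and Col4a2. In both probe sets of Lamc1 and of Sparc, the Flk-pos Foxf1-neg arrays are the lowest 2, and in those of Col4a1 the Flk-neg Foxf1-pos arrays are not.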

How the data were processed

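RNA of 50 sorted cells per sample was amplified with the SuperAmp kit, labelled as sense-strand DNA and hybridised to Affymetrix mouse exon arrays, per the labels' protocols. The authors deposited log2 signals of 6 arrays at gene and exon level (12 samples, counted here as 6); Affymetrix Power Tools and RMA, without versions, are listed in the submitters' processing notes, and the values themselves (about 3 to 14) show the log2 scale. Build and gene grouping are not given in the sources used here.

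All 22400 gene rows were fitted with limma 3.58.1 (R 4.3.3; lmFit and eBayes, population as the only factor, 3 residual and 4.27 prior degrees of freedom), with two-sided tests, Benjamini-Hochberg adjustment over all rows per comparison and a threshold of 0.05. All 10 members are named. The members, lists and tests were chosen with earlier results of these data known. Planned lists of other matrix genes and cell type markers were not tested, for lack of names for the IDs. Probe sets were matched by exact equality of values. Precision is limited by having 2 arrays per population. The fit was tested on simulated data, and figures used matplotlib 3.10.9.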

Additional observations from a re-analysis of the deposited data

How the results depend on the processing

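No member was called in any comparison under any alternative run: median centring, a second quantile normalization, dropping the dimmer 50% of rows (which removes Postn), an intensity trend with robust prior, fitting only the populations compared, leaving out each array, and averaging the probe sets matched by value, which was chosen after seeing the data and covers 6 members. The lowest adjusted p was 0.215 (Lamc1 in Flk-neg Foxf1-pos against Flk-pos Foxf1-neg cells, without Flk-pos Foxf1-neg sort 1). In a fit with a replicate block for the sort number, 0 members passed in each comparison, with lowest adjusted p of 0.728, 0.671 and 0.330 in limma. Sorts were not taken as paired, since the labels do not say that a sort number marks a shared day or litter. Deviations of the sorts correlated across genes at 0.137, 0.0975 and 0.0591, all positive but not all over 0.1. These values do not show that the sorts are unpaired. Averaging probe sets by an annotation table was not run. Over all rows, 64 and 122 genes were called in Flk-pos Foxf1-pos against Flk-neg Foxf1-pos and in Flk-neg Foxf1-pos against Flk-pos Foxf1-neg cells, 41 and 69 with only the populations compared, and 2 to 41 and 26 to 69 with 1 array left out, fits with fewer residual degrees of freedom.

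Of 375 differences recomputed for single members, 29 changed sign, all of them uncalled. Part of them could not: dropping dim rows, the trend, the sort block and fitting only the populations compared leave the difference itself unchanged. So does leaving out an array of the third population. Col1a1, Lamc1, Sparc and Postn kept their sign between Flk-neg Foxf1-pos and Flk-pos Foxf1-neg cells. Their arrays do not overlap there, so leaving out 1 array could not reverse it. Lamb1, whose arrays overlap, kept its sign too. Between the Foxf1-pos populations, the arrays of the fibrillar collagens and Col4a1 do not overlap. Leaving out 1 array could not reverse their differences there either. Col4a1 in Flk-pos Foxf1-pos against Flk-pos Foxf1-neg cells was 0.033 after quantile normalization, 0.00049 after median centring and 0.34 with matched probe sets, against -0.017. In Flk-neg Foxf1-pos against Flk-pos Foxf1-neg cells, matched probe sets gave 0.15 for Col4a1 and 0.019 for Lama1; the cause was not tested. With 1 array left out, the differences between the Flk-pos populations ranged from -0.025 to 0.14 for Col1a1, -0.33 to 0.024 for Col1a2, -0.38 to 0.23 for Col3a1, -0.15 to 0.12 for Col4a1, -0.093 to 0.20 for Lama1, -0.10 to 0.58 for Lamb1 and -0.47 to 0.57 for Lamc1. In Flk-pos Foxf1-pos against Flk-neg Foxf1-pos cells they ranged from -0.28 to 0.10 for Col4a2, -0.35 to 0.33 for Lamb1, -0.27 to 0.15 for Sparc and -0.45 to 0.20 for Postn. In Flk-neg Foxf1-pos against Flk-pos Foxf1-neg cells they ranged from -0.13 to 0.22 for Col1a2, -0.29 to 0.33 for Col3a1, -0.31 to 0.072 for Col4a2 and -0.25 to 0.041 for Lama1.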

Other observations

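Within-array gaps between the chains of 1 trimer were also read, as descriptions without a test. The log2 gap of Lamc1 to Lama1 was 0.49 and 0.99 in Flk-neg Foxf1-pos cells, 0.04 and -0.70 in Flk-pos Foxf1-neg cells and -0.39 and -0.29 in Flk-pos Foxf1-pos cells, so both Flk-neg Foxf1-pos arrays had the largest gaps. The gap of Lamc1 to Lamb1 was -0.30 and -0.05 in Flk-neg Foxf1-pos cells, -0.19 and -1.60 in Flk-pos Foxf1-neg cells and -0.65 and -1.52 in Flk-pos Foxf1-pos cells, where the first population overlaps the second. For type I collagen, the gap of Col1a1 to Col1a2 was 0.75 and 1.07 in Flk-neg Foxf1-pos cells, 0.49 and 0.69 in Flk-pos Foxf1-neg cells and 0.79 and 0.81 in Flk-pos Foxf1-pos cells. The absolute size of a gap depends on the probes. Its change between arrays can depend on them too, since a gene value may come from different probe sets on different arrays.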
